A study of Rattus norvegicus with 6 samples.

Results

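The 9 genes described here, Abca1, Abcg1, Ch25h, Apoe, Mylip, Pltp, Lpcat3, Nr1h2 and Nr1h3, carry out or control the removal of cholesterol from cells. They were taken as a named list, and every listed gene was found among the 15443 named genes of the array, through 10 probes of 30367 (Mylip has 2 probes and each other gene has 1). The list was selected on the measured levels and differences of all 6 arrays, which were known when it was drawn up, so the values below are a description and no test is read for a member. Expression was measured on 1-colour Agilent arrays from Sprague Dawley rats aged 13 weeks. In culture, stem cells from adipose tissue (ADSCs, a mesenchymal cell type) labelled with 124I-HIB, a fatty iodobenzoate ester that carries a positron-emitting iodine, were set against unlabelled ADSCs, both at 14 days of culture. In the heart, infarcted myocardium injected with 124I-HIB-labelled ADSCs (called treated, replicates 1 and 3 of the labels) was set against infarcted myocardium injected with PBS and against myocardium of a sham-operated rat. All heart samples are dated to 21 days after a sham operation, the infarcted ones included. There are 2 treated arrays and 1 array for each other group, and it is not stated whether the treated samples came from separate animals or how many rats or cultures stand behind an array.

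Each value is the log2 of an array's processed signal minus the log2 of that array's 75th percentile, so 0 is the brightness of the 75th percentile itself. The 75th percentile was a signal of 772 to 1276 on the heart arrays and 2360 to 2615 on the cell arrays, and no spot was saturated. Each probe was printed as 2 spots per array. The spots of a member's brightest probe differed by a median of 0.084 log2 units, and by 0.47 at most (Pltp on the sham array), which measures the error of reading an array and not of repeating the experiment. All 9 genes were well above background on all 6 arrays, as were 15886 of 27455 features. On single arrays 64.4% to 69.4% of probes passed. Of 12 mesenchymal markers, 12 were well above background on both cell arrays and 11, all but Thy1, on every heart array. All 11 cardiomyocyte markers were well above background on every heart array. On the cell arrays 7 of 11 cardiomyocyte markers passed too, without Myh6, at a summed signal of 3.10 in labelled and 2.96 in unlabelled cells (multiples of the 75th percentile), against 1904 to 2882 in the heart. Of 17 macrophage markers, 9 in labelled and 11 in unlabelled cells passed, without the leukocyte marker Ptprc, and their part in the cell values was not tested. In whole tissue, fewer cells of a type and less RNA per cell cannot be told apart.

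Cells dispose of surplus cholesterol by pumping it out, mainly through the membrane transporters ABCA1 and ABCG1, onto apolipoprotein particles in the surrounding fluid. Oxidised forms of cholesterol, the oxysterols, report the surplus: they bind the liver X receptors LXR-alpha (Nr1h3) and LXR-beta (Nr1h2), nuclear receptors that switch on the transporters, Apoe, Pltp, Lpcat3 and Mylip. In the infarcted heart the pathway is best known from macrophages that take up dead cells, and in fat from adipocytes and their precursors.

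Ch25h, cholesterol 25-hydroxylase, makes the oxysterol 25-hydroxycholesterol. Its signal in labelled ADSCs was 239 and 252 on the 2 spots, against 42.6 and 45.5 in unlabelled ADSCs. The log2 level was -3.41 in labelled and -5.74 in unlabelled cells. That is a log2 difference of 2.33, or 5.03-fold, and only 1 of 18271 features measured on both arrays had a larger positive difference. In the heart the log2 level was -3.89 and -3.50 in treated myocardium, -3.01 in PBS myocardium and -4.04 in sham myocardium. The PBS array was the highest and both treated arrays lay between PBS and sham. The probe is dim, and the sizes depend on the background correction: with normexp the labelled minus unlabelled difference was 1.31 and the PBS minus sham difference 0.30, in place of 1.03. Treated minus sham was 0.34 ± 0.28 (SD, n = 2), and -0.10 with normexp, so its direction depends on that choice. The Ch25h promoter is shown because the gene had the largest response of the 9. Its sequence from RefSeq (GRCr8, chr1:241429317-241429616, minus strand) runs from 250 bases before the gene start to 50 after it, and capitals mark an exact cyclic AMP response element, TGACGTCA, at bases -77 to -70.
Ch25h promoter: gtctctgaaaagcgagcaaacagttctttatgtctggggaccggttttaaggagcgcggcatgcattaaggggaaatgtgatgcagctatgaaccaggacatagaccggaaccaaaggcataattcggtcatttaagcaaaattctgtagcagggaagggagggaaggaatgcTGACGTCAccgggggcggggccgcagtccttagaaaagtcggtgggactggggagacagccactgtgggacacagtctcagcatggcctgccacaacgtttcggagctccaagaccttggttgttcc
The element reads the same on both strands and occurs in 1.83% of the 33469 promoters of this length. None of the other members' promoters in the table held it. Besides this element and the DR4 repeat described below, an AP1 site and an interferon-stimulated response element (ISRE) were searched. An exact AP1 site occurred in 7.33% of all promoters and in none of the members' promoters searched. An exact ISRE occurred in 3.92% of all promoters and, among the members searched, in Pltp alone. Any part of the cyclic AMP response element in the Ch25h difference was not tested.

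Abca1, the transporter that loads cholesterol and phospholipid onto lipid-poor apolipoprotein, gave spot signals of 2558 and 2781 in labelled ADSCs, against 980 and 985 in unlabelled ADSCs. Its log2 level was 0.03 in labelled and -1.26 in unlabelled cells, a difference of 1.29 (2.45-fold), and 31 features had a larger one. In the heart it stood at -3.78 and -3.32 in treated myocardium, -3.01 in PBS myocardium and -3.49 in sham myocardium. The treated replicates were 0.46 apart and lay on both sides of sham. Treated minus PBS was -0.54 ± 0.33 (SD, n = 2), with both treated arrays below PBS. PBS minus sham was 0.48, and 0.13 with normexp. The Abca1 promoter (RefSeq, GRCr8, chr5:72596424-72596723, minus strand, the same window) is shown because the element through which LXR acts on human ABCA1, a DR4 repeat, lies close to the gene start, and capitals mark the best DR4 match in the rat sequence, at bases -70 to -55.
Abca1 promoter: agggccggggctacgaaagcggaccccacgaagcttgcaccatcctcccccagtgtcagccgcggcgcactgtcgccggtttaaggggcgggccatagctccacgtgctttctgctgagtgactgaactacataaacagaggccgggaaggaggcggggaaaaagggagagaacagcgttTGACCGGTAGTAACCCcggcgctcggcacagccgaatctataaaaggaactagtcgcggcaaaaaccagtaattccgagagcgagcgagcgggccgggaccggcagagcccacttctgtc
Abca1 DR4 match, other strand: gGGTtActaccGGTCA
In the second line capitals mark the bases that match the repeat, AGGTCA written a second time after a gap of 4 free bases, in 9 of its 12 fixed bases, at chr5:72596528-72596543. Searched on both strands, a match of 9 or more bases was present in 21.9% of all promoters of this length, so it is common. Among the 8 members with a promoter in the table (10 windows, 3 of them for Apoe), Abca1 was the only gene with such a match. No such match says only that these letters are not within the window.

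Abcg1, the transporter that passes cholesterol to mature HDL, followed Abca1 in the cells. Its spots read 1497 and 1534 in labelled ADSCs, against 543 and 561 in unlabelled ADSCs, a log2 difference of 1.31 (2.48-fold) that 28 features exceeded. The log2 levels were -0.79 in labelled and -2.10 in unlabelled cells. The spots of the 2 cell arrays did not overlap for any member, not even for Nr1h2 at a difference of 0.055. The share over all features is not given, so this sets neither a gene nor the list apart. Relative to the 75th percentile the gene was brighter in the heart than in the cells, and nearly level there. It stood at 0.833 and 1.104 in treated myocardium, 1.16 in PBS myocardium and 1.01 in sham myocardium. Without that scaling its mean signal was 1555 in sham myocardium, against 1515 in labelled and 552 in unlabelled ADSCs. Treated minus PBS was -0.19 ± 0.19 (SD, n = 2) and PBS minus sham 0.15, smaller than the 0.27 between the treated arrays. The transporters therefore shared the direction in labelled cells but not the tissue in which they were brighter relative to the 75th percentile. Both cell arrays exceeded all 4 heart arrays for Abca1 and fell short of all 4 for Abcg1, orders that 41.3% and 38.9% of the features measured on all arrays also showed.

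**Figure D1:**
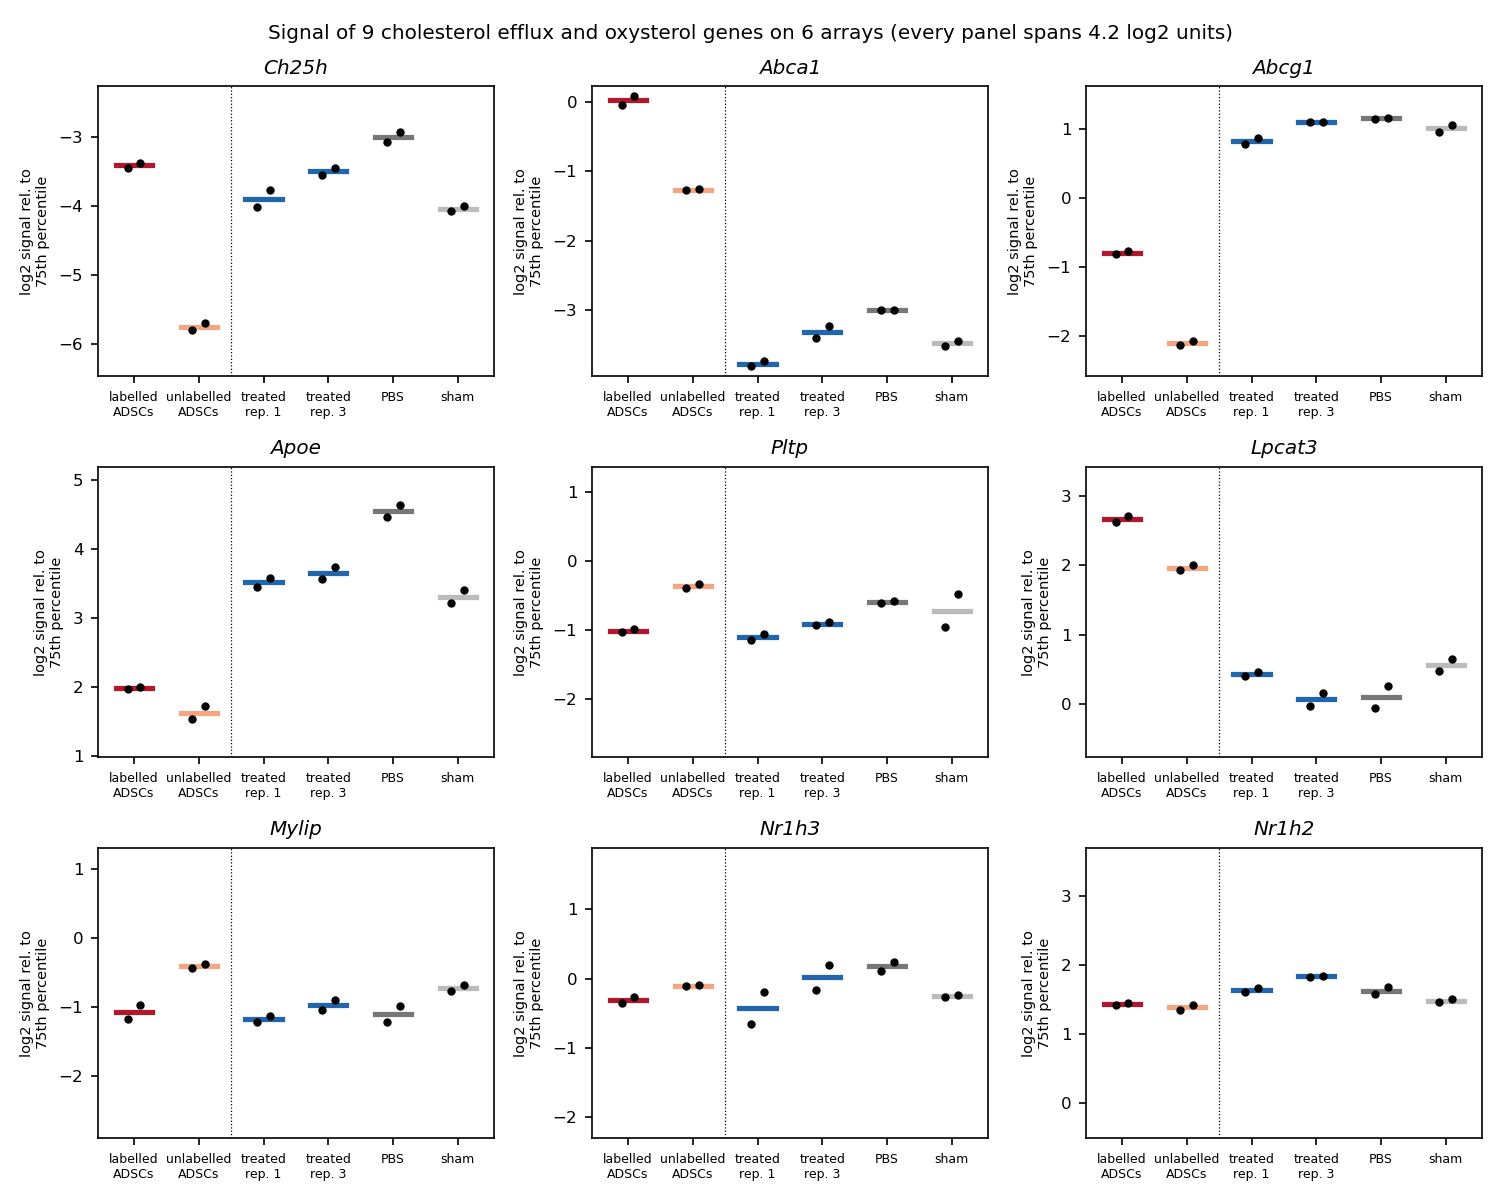
Log2 signal of each gene relative to its array's 75th percentile (vertical axis, the same span in every panel) on the 6 arrays (horizontal axis); dots are the 2 spots of the probe and bars their mean. Ch25h, Abca1 and Abcg1 stand apart between labelled and unlabelled ADSCs, and Apoe and Ch25h are highest on the PBS array among the heart arrays.

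Among the lipoprotein partners, Apoe and Pltp differed little between the cells relative to Ch25h and the transporters. Apoe, the apolipoprotein E that leaves macrophages with cholesterol and is cleared by the liver, had a log2 level of 1.99 in labelled and 1.63 in unlabelled ADSCs, a difference of 0.36. Relative to the 75th percentile Apoe was brighter in the heart. It stood at 3.52 and 3.65 in treated myocardium, 4.55 in PBS myocardium and 3.31 in sham myocardium. Without that scaling its mean signal was 7662 in sham myocardium, between 7326 in unlabelled and 10413 in labelled ADSCs. In signal, its PBS spots were 24733 and 27816, against 7154 and 8206 in sham myocardium. PBS minus sham was 1.24 (2.36-fold), and the treated arrays lay close to sham, with treated minus sham at 0.27 ± 0.095 (SD, n = 2). Treated minus PBS was -0.96 ± 0.095 (SD, n = 2), with -1.03 in replicate 1 and -0.90 in replicate 3, so replicate 1 alone passed 2-fold. Pltp, the phospholipid transfer protein that remodels HDL, ran the other way in the cells, at -1.01 in labelled and -0.36 in unlabelled ADSCs, a difference of -0.64. Its heart levels were -1.10 and -0.91 in treated myocardium, -0.59 in PBS myocardium and -0.72 in sham myocardium. The sham spots of Pltp, at -0.95 and -0.48, enclosed the PBS value and the higher treated value.

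Lpcat3 and Mylip, which LXR controls in many cell types, moved in opposite directions in labelled cells. Lpcat3 puts polyunsaturated fatty acids into membrane phospholipids, and its log2 level was 2.67 in labelled and 1.96 in unlabelled ADSCs, a difference of 0.70 (1.63-fold). In the heart it read 0.43 and 0.07 in treated myocardium, 0.10 in PBS myocardium and 0.56 in sham myocardium. Those heart values fell within 0.5 log2 units, and the treated replicates were 0.36 apart. Mylip, also called Idol, is a ubiquitin ligase that limits the uptake of lipoprotein cholesterol. Its brighter probe stood at -1.07 in labelled and -0.41 in unlabelled ADSCs, a difference of -0.67. In the heart this probe read -1.18 and -0.97 in treated myocardium, -1.10 in PBS myocardium and -0.73 in sham myocardium. The other Mylip probe was far dimmer and not well above background in sham myocardium, at -5.98 in labelled against -5.41 in unlabelled cells. Its spots differed by up to 1.04. In the heart the probes disagreed: PBS minus sham was -0.37 on the brighter probe and 0.15 with the probes averaged.

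The receptors changed least in the cells. Nr1h2 had a log2 level of 1.44 in labelled and 1.38 in unlabelled ADSCs, a difference of 0.055. Nr1h3 stood at -0.31 in labelled and -0.10 in unlabelled ADSCs, a difference of -0.21. In the heart Nr1h2 read 1.63 and 1.83 in treated myocardium, 1.62 in PBS myocardium and 1.48 in sham myocardium, and its treated minus sham difference was 0.25 ± 0.14 (SD, n = 2). Nr1h3 read -0.42 and 0.02 in treated myocardium, 0.18 in PBS myocardium and -0.25 in sham myocardium. Its treated replicates were 0.44 apart and lay on both sides of sham, so no order between treated and sham can be given, while PBS minus sham was 0.43. Levels of the receptors cannot be set against each other, since they come from different probes.

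Over the list, labelled minus unlabelled differences were 2-fold or more for 3 of the 9 genes, all higher in labelled cells (Ch25h, Abcg1 and Abca1). Among all 18271 features measured on both cell arrays, 1.04% were 2-fold apart and 0.449% were higher in labelled cells, but since the list was chosen with these values known, nothing is read from the excess. The median member difference was 0.36, with 6 genes above 0 and 3 below, against a median of -0.04 over all features. Pltp and Mylip stood below 96.8% and 97.1% of all features. Each condition had 1 array, so these differences have no replicate check.

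**Figure D2:**
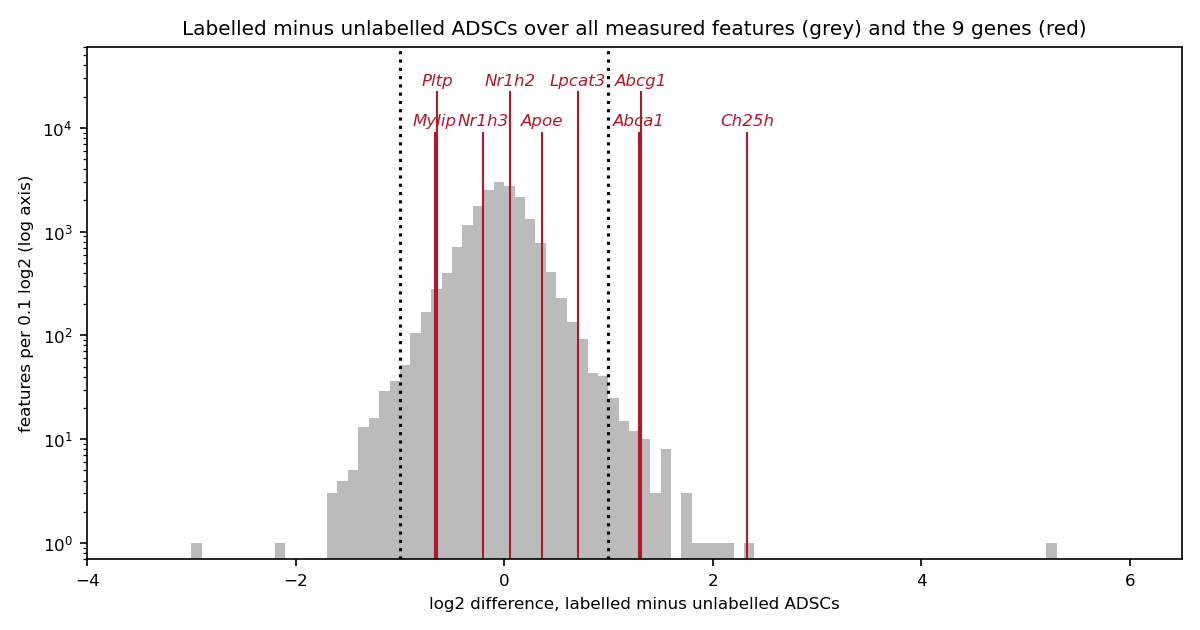
Distribution of the log2 difference of labelled minus unlabelled ADSCs over 18271 features (grey, counts per bin on a log axis), with the 9 genes as red lines and 2-fold as dotted lines. Ch25h (2.33), Abcg1 (1.31) and Abca1 (1.29) lie beyond 2-fold on the upper side, and Mylip (-0.67) and Pltp (-0.64) lie on the lower side within it.

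Other lists of the pathway are given for the same arrays, where 1.04% of all features were 2-fold apart. Of 11 measured genes among other efflux and HDL genes, 0 were 2-fold apart, and their median difference was 0.01. Its widest members were Clu (0.33), an HDL-associated apolipoprotein, and Abca2 (-0.22), an endosomal lipid transporter. Of 12 measured LXR targets and partners, 0 were 2-fold apart, with a median of -0.03. Scd, the desaturase that is a classical LXR and SREBP target, stood at 1.62 in labelled and 2.05 in unlabelled cells, a difference of -0.43. Fasn, the fatty acid synthase, differed by 0.13 and Rxrb, a partner of LXR, by -0.07. Among 7 oxysterol enzymes none was 2-fold apart (median 0.06). Cyp11a1, the side-chain cleavage enzyme of steroid synthesis, stood at 0.39 and Cyp27a1, the sterol 27-hydroxylase, at -0.26.

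SREBP2 is the factor that switches on synthesis when sterol is scarce. Of 15 measured genes of SREBP2, synthesis and uptake, 12 were above 0 and 3 below, with a median of 0.20 and 0 genes 2-fold apart, where 43.9% of all features were above 0. Sc5d, a late synthesis enzyme, stood at 0.48 and Dhcr7 at 0.34, while Lss, the lanosterol synthase, stood at -0.35. Among 15 genes of intracellular cholesterol handling the median was -0.05 and 1 gene was 2-fold apart, Gramd1c, a sterol carrier at membrane contacts, at -1.27. Its probe was dim, at -6.39 in labelled and -5.12 in unlabelled cells. The lowest values well above background on those arrays were -6.89 and -6.82. Cav1, the caveolar coat protein, stood at 0.56 and the sterol carrier Stard4 at 0.33.

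**Figure D3:**
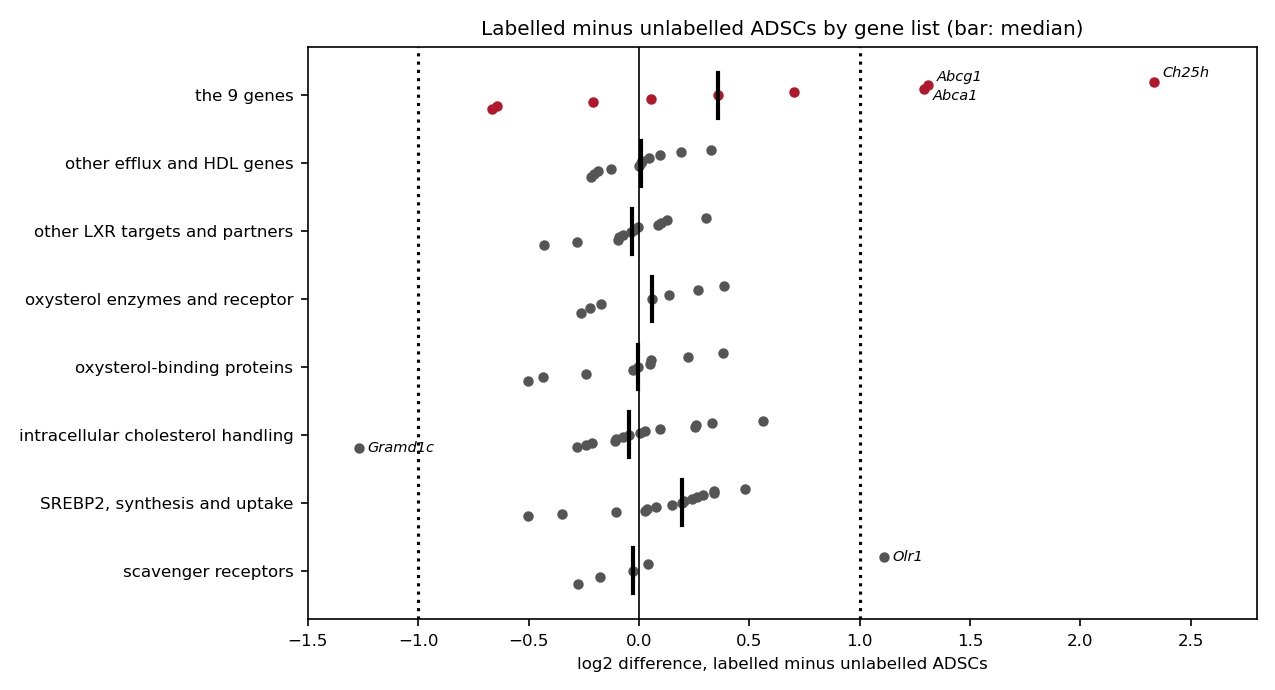
Log2 difference of labelled minus unlabelled ADSCs (horizontal axis) for each measured gene of the list described here (red) and of 7 other lists of sterol genes (grey), with list medians as bars and 2-fold as dotted lines. Medians of the other lists lie between -0.05 and 0.20, and Gramd1c (-1.27, a dim probe) and Olr1 (1.11) are the genes of those lists beyond 2-fold.

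In the heart, the PBS array was the highest of the 4 for 6 of the 9 genes (Apoe, Ch25h, Abca1, Nr1h3, Abcg1 and Pltp), as it was for 24.1% of all features. The same 6 genes had both treated arrays below PBS, against 34.1% of all features, and for 3 of them (Apoe, Abca1 and Pltp) both treated arrays lay closer to sham than to PBS, against 31.7%. These shares share the PBS array and are no separate results. Some of these margins were narrow. For Abcg1, treated replicate 3 lay 0.05 below PBS. For Nr1h3, the spots of treated replicate 3, at -0.17 and 0.20, enclosed the PBS value of 0.18. By size, PBS minus sham reached 2-fold for Apoe and Ch25h, both higher, where 3.67% of 17255 features were 2-fold apart and 2.23% were higher. The Ch25h value was just past the threshold: with quantile normalization, median centring and the deposited table it was 0.96, 0.97 and 0.99. In treated minus PBS and in treated minus sham, 0 of the 9 genes were 2-fold apart in both treated arrays, where 1.26% and 0.973% of all features were. The treated arrays themselves were 2-fold apart at 1.36% of features. In limma, fitted over 19603 features of the 4 heart arrays, 0 features (0%) passed an adjusted p under 0.05 in either comparison. At an unadjusted p under 0.05 there were 1894 features for treated minus PBS and 1886 for treated minus sham.

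**Figure D4:**
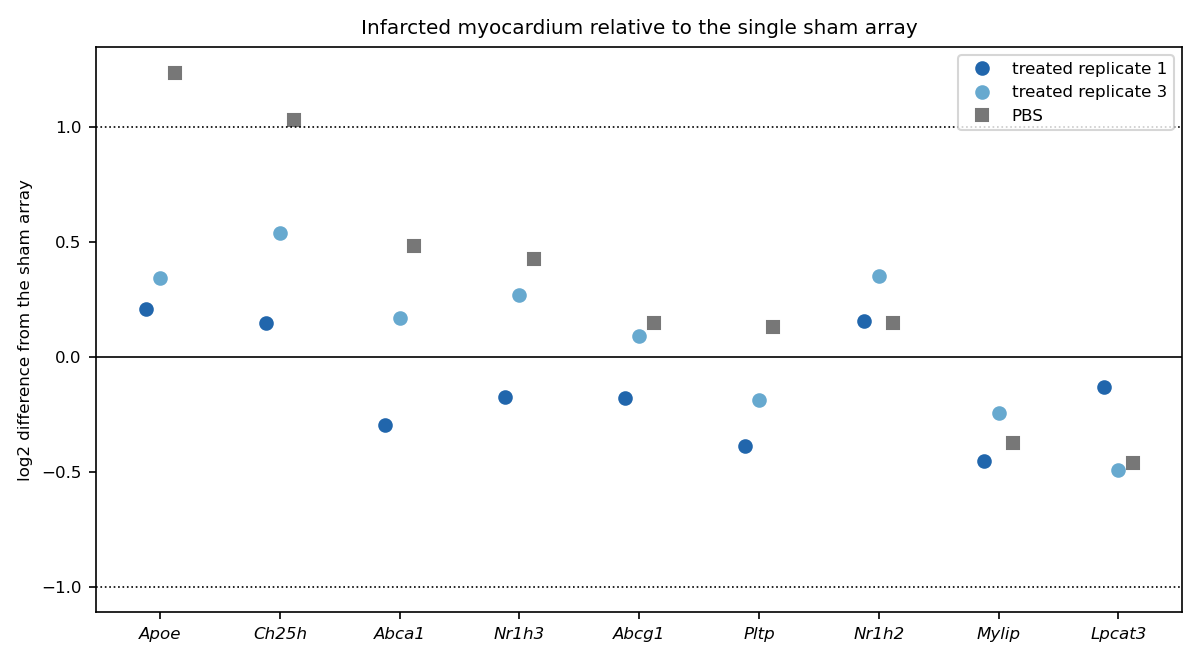
Log2 difference from the sham array (vertical axis) for each gene in treated replicates 1 and 3 (circles) and PBS myocardium (squares), with 2-fold as dotted lines. PBS lies highest for Apoe (1.24) and Ch25h (1.03), and the treated replicates fall on both sides of sham for Abca1, Abcg1 and Nr1h3.

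Markers of other cells also differed between the heart arrays. Adipoq, the adipocyte hormone adiponectin, stood at -2.66 on the PBS array and was not well above background on the other heart arrays. It was at least 7.76-fold higher on the PBS array than on the sham array, by a bound that sets the bright value against the higher of the dim probe's own signal and the lowest signal of a probe well above background on that array. Retn, the adipocyte protein resistin, was at least 11.2-fold higher on the PBS array than on the sham array by the same bound. The summed signal of the 8 adipocyte markers on the array, as multiples of the 75th percentile, was 8.20 and 9.83 in treated myocardium, 10.6 in PBS myocardium and 11.1 in sham myocardium. Most of that sum on each heart array was Fabp4, the marker with the highest signal, so it hardly registers the dimmer Adipoq and Retn. Fabp4 was lower in PBS than in sham myocardium (-0.31), whereas Lipe (0.69), Cfd (0.40) and Pparg (0.15) were higher. Lep and Cidec, markers of mature adipocytes, were not well above background on any heart array. The summed signal of 6 atrial markers was 165 and 142 in treated myocardium, 449 in PBS myocardium and 168 in sham myocardium. Outside the PBS array that sum was mostly Myl4, which stood at 7.33 in sham and 7.10 in PBS myocardium. Of 4 atrial markers measured in PBS minus sham, 3 were 2-fold higher (Myl7, Nppa and Mybphl) and 1 was below 0, with a median of 5.27. Myl7 stood at 2.02 and 0.83 in treated myocardium, 7.60 in PBS myocardium and -0.47 in sham myocardium. For 17 macrophage markers the summed signal was 23.0 and 26.7 in treated myocardium, 28.9 in PBS myocardium and 27.0 in sham myocardium. Of 16 macrophage markers measured on the PBS and sham arrays, 8 were above 0 and 8 below in PBS minus sham, with a median of -0.0016. In treated minus PBS 13 of 16 measured ones were below 0, with a median of -0.20, where 51.6% of all features were above 0. Of 11 measured mesenchymal markers, 9 were above 0 in PBS minus sham (median 0.09), where 44.5% of all features were. In treated minus PBS 9 of them were below 0 (median -0.34), where 51.6% of all features were above 0. Of 11 cardiomyocyte markers, 10 were below 0 in PBS minus sham (median -0.42) and 5 in treated minus PBS (median 0.03). The part of these cell types in the values of Apoe and Ch25h was not tested.

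Other efflux, oxysterol and synthesis genes are set beside the 3.67% of all features that were 2-fold apart in PBS minus sham. In PBS minus sham, 0 of 9 measured efflux and HDL genes were 2-fold apart, led by Apod at 0.77, Lcat, the enzyme that esterifies cholesterol on HDL, at 0.65 and Abcg4 at 0.61. For Lcat, treated minus sham was 0.85 ± 0.041 (SD, n = 2). In the list of oxysterol enzymes and the oxysterol receptor Gpr183, 7 genes were measured in PBS minus sham. Cyp11a1 stood at -0.90, Hsd11b1 at -0.72 and Cyp27a1 at -0.66. For Cyp27a1, treated minus PBS was 0.59 ± 0.13 and treated minus sham -0.07 ± 0.13 (SD, n = 2 each). Of 13 measured genes of SREBP2, synthesis and uptake, 1 was 2-fold apart in PBS minus sham, Lss, at -1.37.

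By Pearson correlation over the 6 arrays, a measure set mostly by the contrast of cells with heart, the genes most like Abca1 among 9743 others were Cyth3, Agfg1 and Cttnbp2nl (r of 0.997, 0.995 and 0.995). Those most like Abcg1 were Pde2a, Slc12a2 and St3gal6 (0.998, 0.997 and 0.994), and Pde2a stood at 1.53 in labelled and 0.14 in unlabelled cells. Those most like Apoe were Hamp, Mb21d2 and Pgap3 (0.992, 0.992 and 0.991). With 2 cell arrays and 4 heart arrays, these values describe a shared shape over few points.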

How the data were processed

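For each array the deposited scanner file holds intensity values, and the submitters' processing notes name Agilent Feature Extraction 11.0.1.1. How the deposited table of log2 values was produced is not stated in the labels. In that deposited log2 table the 4 heart columns share a median (8.85), as do the 2 cell columns (9.67), and each follows its array's signal (lowest r 0.9997), so its direction is that of the signal. It served as an alternative.

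Control spots and outlier spots were left out, and a probe's spots were averaged. Probe accessions were matched to RefSeq genes (GRCr8, used for names because the arrays were designed on an earlier build): 18355 of 30367 probes had a name, 0 had several genes and 12012 stayed unnamed. The brightest probe stood for a gene, giving 27455 features. Differences of log2 values were counted at 2-fold among features that every array of the comparison had well above background, and in both treated arrays where they entered. The treated pair supplies the SD. Limma 3.58.1 (R 4.3.3) was fitted to the heart arrays with 1 residual degree of freedom, which assumes that the lone PBS and sham arrays vary like the treated pair. Tested on simulated data for treated minus PBS (19603 features), 8% of the features given a log2 change of 2 passed, 85% of those given 4, and 11 of those given none. For normexp (offset 50) the median signal stood in for the mean signal.

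The members and the 14 other lists (174 genes, 161 on the array) were chosen with earlier results of these data known. Named from other lists are up to 4 genes with the widest labelled minus unlabelled difference and up to 3 with the widest difference in heart comparisons; Dhcr7, Rxrb, Lep, Cidec, Pparg, Adipoq, Retn and Lcat in treated myocardium were added after their values were seen. Some listed genes are not reported here. Figures were drawn with matplotlib 3.10.9.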

Additional observations from a re-analysis of the deposited data

How the results depend on the processing

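The 3 genes 2-fold higher in labelled ADSCs stayed past 2-fold with normexp, quantile normalization, median centring and the deposited table. Of all features, 0.389%, 1.02%, 1.03% and 0.926% were 2-fold apart in those settings, in that order. With a 1.5-fold threshold 6 genes passed, the added ones being Mylip, Pltp and Lpcat3 (6.5% of all features passed). In PBS minus sham, 1 member (Apoe) in place of 2 was 2-fold apart with normexp, quantile normalization, median centring and the deposited table. The shares of all features were 1.39%, 3.69%, 3.76% and 3.25%, in that order. In treated minus PBS, 1 member (Apoe) passed at 1.5-fold (4.88% of all features). With replicate 1 left out, 0 members were 2-fold apart (2.54% of all features), and with replicate 3 left out 1 was, Apoe (2.88%). In treated minus sham 0 members were 2-fold apart with replicate 1 left out (2.41% of all features) or replicate 3 left out (2.18%). Dropping the filter, and averaging probes of genes with 1 probe, leave 68 member differences equal by construction. Of the 184 others, 177 moved by less than the spread used and 7 by more, and 9 changed sign, all of differences under 2-fold. The spread used was the gene's SD between the treated arrays where these entered, and elsewhere that SD over all features (0.22). The 184 include values with 1 treated replicate left out. Their shift is by construction smaller than the SD of the pair, so their staying within it says nothing. The count of features past limma was 82 with normexp and 58 with a trended and robust variance for treated minus PBS, and 50, 51 and, with the deposited table, 2 for treated minus sham; the cause was not tested. No paired analysis was possible because the groups compared share fewer than 2 replicate numbers. Signal over background limits Ch25h, whose unlabelled signal was 44.0.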

Other observations

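Scavenger receptors, which bring modified lipoproteins and dead cells into a cell, are given here by gene. Olr1, the receptor for oxidised LDL, had a log2 level of -3.02 in labelled and -4.13 in unlabelled ADSCs, a difference of 1.11 that was the largest of 5 measured receptors. Lrp1, the large receptor that binds Apoe, stood at 1.45 in labelled and 1.72 in unlabelled cells. In the heart, Scara3 had log2 levels of -1.63 and -1.81 in treated myocardium, -0.45 in PBS myocardium and -2.48 in sham myocardium, with treated minus PBS at -1.27 ± 0.13 (SD, n = 2). All 6 receptors measured on the treated and PBS arrays were lower in treated myocardium, with a median of -0.52, against 0.01 over all features. Of all features 51.6% were above 0 in that comparison, which rests on 1 PBS array. In treated minus sham, 2 of 5 measured receptors were above 0 and 3 below, with a median of -0.18.

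Oxysterol-binding proteins, which carry sterols between membranes, were nearly level in labelled cells. Of 9 measured, 0 were 2-fold apart, with a median of -0.003. Osbpl6 stood at -0.50 and Osbpl1a at -0.43, and Osbp2 at 0.38. In PBS minus sham the 8 measured ones lay between -0.37 and 0.22.

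Interferon response genes had a median labelled minus unlabelled difference of -0.27 over 11 measured genes, with Cxcl10 at 0.57 and Mx2 at -0.73. In PBS minus sham all 11 were below 0, with a median of -0.74, where 44.5% of all features were above 0. In treated minus PBS all 11 were above 0, with a median of 0.31, where 51.6% of all features were. Both comparisons share the 1 PBS array. In treated minus sham 10 of the 11 were below 0, with a median of -0.25, where 44.4% of all features were above 0.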
